A study of Mus musculus with 80 samples.

Results

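The set described here comprises 10 genes of the endoplasmic reticulum (ER) folding machinery and the unfolded protein response, Hspa5, Hsp90b1, Calr, Pdia4, Dnajb9, Dnajc3, Sdf2l1, Xbp1, Atf6 and Creb3l3. The rows were taken by gene symbol from a table of raw read counts over 78275 genes in mouse liver, each of the 10 symbols has 1 row, and all 10 passed the filter on low counts. The 80 libraries, 1 mouse each, came from C57BL/6J mice of 8 to 12 weeks that were kept in a light-dark cycle and then in constant darkness. Control mice ate standard chow ad libitum, fasted mice lost their food at circadian time (CT) 10, and livers were taken every 4 h from CT8 to CT44 from 2 males and 2 females of each treatment. CT8 therefore precedes the fast and serves as the background, CT12 corresponds to 2 h without food, and CT44 to 34 h. The labels give no allele, transgene or drug in any group. In the fasted mice time of day and hours without food advance together and cannot be told apart. The comparisons ask how the ER genes move across the day in fed liver, whether a 12 h component is present beside the 24 h one, and what remains of both when food is withdrawn.

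The ER folds the secreted and membrane proteins of a cell, and the hepatocyte, which makes most plasma proteins, is rich in it. When unfolded protein accumulates, the sensors IRE1, PERK and ATF6 in the ER membrane respond. IRE1 splices the mRNA of Xbp1, ATF6 is carried to the Golgi and cut free as a transcription factor, and both products raise the genes of chaperones, many through the ER stress response element (ERSE) in their promoters, whereas PERK slows translation and favours ATF4. CREB3L3 is a relative of ATF6 that is enriched in liver and small intestine and acts on genes of lipid transport and the fasting response. Liver is known for chaperone transcripts that rise and fall with feeding, and 12 h components have been described for ER genes in mice.

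Library totals ran from 25534901 to 59927771 counts, with a median of 42303883, and the 10 genes together held 0.178% to 0.548% of each library. The titles and the characteristics of the samples disagree in 40 libraries on treatment and in 40 on sex. Titles were used here, and Xist against Ddx3y went with the titled sex in 80 of 80 libraries. Cidec, a lipid droplet gene induced by fasting, stood at 0.0882 to 4.26 CPM, that is, counts scaled to a common library total, in the control libraries of CT16 to CT44 and at 10.8 to 269.7 CPM in the fasted libraries of those times. The row of a ribosomal RNA gene, Rn18s-rs5, took 31.3% of the library of control CT8 female 2 and over 1% of 7 libraries in all, against a median of 0.101%. Of the fasted group at CT8, the background time, male 1, male 2 and female 2 were among the 7, at 1.67%, 2.44% and 4.88%. Leaving out control CT8 female 2 changed 2 calls of the contrasts below, in that Dnajc3 at CT20 was lost and the change in night minus rest of Dnajb9 was gained. Labels do not say whether the mice of a group shared a cage, and p-values measure the spread between these mice.

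Promoter stretches were taken from RefSeq on GRCm38.p6, a different build from the GRCm39 of the count table, and are credited to that reference alone. It lists 9 of the 10 genes, Atf6 being the missing entry. In the 250 bases before the RefSeq start, the exact ERSE, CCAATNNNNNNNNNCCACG, was present on either strand in 33 of 27025 genes (0.122%), and 4 of the 9 listed members, Calr, Dnajc3, Hsp90b1 and Hspa5, are among them. Allowing 1 other letter in the last 5 adds Pdia4, at a share of 0.918% of genes. The stretches are shown because they mark which of the chaperone genes below carry the element. Each is 30 bases and reads 5′ to 3′ on the strand of the gene, and capitals mark the 5 letters at either end of the element, which are read as their reverse complement where it lies on the opposite strand. The Pdia4 stretch holds the match with 1 other letter.
Hspa5, chr2:34772020-34772049, plus strand: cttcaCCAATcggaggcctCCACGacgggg
Hsp90b1, chr10:86705632-86705661, minus strand: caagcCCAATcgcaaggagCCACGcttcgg
Hsp90b1, chr10:86705527-86705556, minus strand: gagtgCGTGGtgaggcacgATTGGtgagtt
Dnajc3, chr14:118937822-118937851, plus strand: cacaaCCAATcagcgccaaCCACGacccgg
Calr, chr8:84847069-84847098, minus strand: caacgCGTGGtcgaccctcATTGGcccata
Pdia4, chr6:47813596-47813625, minus strand: aaccgAGTGGcagcccgtgATTGGtggtcg

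Of the other motifs searched on both strands, ERSE-II (ATTGGNCCACG), which overlaps no ERSE match here, occurred in 0.0333% of genes and in 0 of the 9 members. The core TGACGTG occurred in 1.6% of genes and once among the members, in Hspa5, and the E-box CACGTG in 6.04% of genes and in Calr and Dnajb9. These are letter matches in 1 window and say nothing of binding. For comparison, 150 bases upstream of the start are printed for Dnajc3, which holds the element, and for Sdf2l1 and Creb3l3, which have no match and moved most under fasting.
Dnajc3, chr14:118937782-118937931, plus strand: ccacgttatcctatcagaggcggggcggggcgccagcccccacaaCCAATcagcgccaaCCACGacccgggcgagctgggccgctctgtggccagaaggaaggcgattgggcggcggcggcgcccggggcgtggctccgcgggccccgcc
Sdf2l1, chr16:17132384-17132533, minus strand: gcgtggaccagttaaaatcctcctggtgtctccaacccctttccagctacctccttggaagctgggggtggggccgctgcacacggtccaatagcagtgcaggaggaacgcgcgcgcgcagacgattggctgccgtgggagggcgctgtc
Creb3l3, chr10:81098875-81099024, minus strand: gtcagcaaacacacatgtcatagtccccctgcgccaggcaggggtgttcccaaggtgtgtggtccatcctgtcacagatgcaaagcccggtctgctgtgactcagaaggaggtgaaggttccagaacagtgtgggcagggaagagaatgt

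All 10 are protein-coding genes, and the counts are per gene, so that the spliced and unspliced forms of Xbp1 mRNA are not separated. On GRCm38 (GENCODE M21) they lie at chr2:34771970-34777547 (Hspa5), chr10:86690209-86705509 (Hsp90b1), chr8:84841850-84846934 (Calr), chr6:47796141-47813430 (Pdia4), chr12:44205559-44210326 (Dnajb9), chr14:118937976-118981697 (Dnajc3), chr16:17130138-17132383 (Sdf2l1), chr11:5520659-5525893 (Xbp1), chr1:170704674-170867771 (Atf6) and chr10:81084324-81098874 (Creb3l3). The Hspa5 stretch of 30 bases printed above lies inside these coordinates, as this annotation starts the gene upstream of the RefSeq start. Per kilobase of exon, the median control level was highest for Calr, at 200.5 CPM per kb, with 40 libraries spread from 146.1 to 364.2. Hsp90b1 (155.2) and Hspa5 (146.3) followed, and their ranges, 120.2 to 278.4 and 78.8 to 369.5, overlapped with each other and with that of Calr. Creb3l3 stood at 96.7, Pdia4 at 68.0, Xbp1 at 66.7 and Dnajc3 at 47.1 CPM per kb. Dnajb9 (20.9), Sdf2l1 (16.6) and Atf6 (9.73) closed the order, and the range of Sdf2l1, 5.28 to 75.01, was the widest of the 3 and enclosed the median of each of the other two.

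In fed liver, a 24 h rhythm was called (adjusted p under 0.05) in 7 of the 10 genes, where 40.8% of the 20114 genes tested did. The chaperones peaked around subjective dawn. Hspa5, which encodes BiP, the ER member of the HSP70 family, stood at 424.4 ± 71.9 CPM (SD, n = 4) at CT8 and at 1117 ± 496.5 at CT24. At CT24 the 2 males were at 1563 and 1523 CPM and the 2 females at 611.2 and 769.9, so both males lay above both females. The fitted 24 h peak-to-trough difference of Hspa5 was 0.72 log2, and the fitted wave was highest at CT22.9 (edgeR quasi-likelihood F test, adjusted p = 0.000374).

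Hsp90b1 (GRP94, the HSP90 of the ER) had a 24 h peak-to-trough difference of 0.44 log2 and Calr (calreticulin, a lectin chaperone) one of 0.63 log2, with peaks at CT0.457 and CT0.0904. Pdia4 (ERp72, a disulphide isomerase) rose from 129.3 ± 11.6 CPM at CT12 to 275.2 ± 67.4 at CT24 (SD, n = 4 each), and its 24 h component of 0.95 log2 peaked at CT23.9 (adjusted p = 2.01e-09 by edgeR). The largest 24 h component of the set belonged to Sdf2l1, which works with a co-chaperone of BiP. At CT12 the control mice held 18.2 and 10.3 CPM (males) and 7.55 and 7.57 CPM (females), and at CT24 they held 83.1 and 65.5 CPM (males) and 18.7 and 32.4 CPM (females). Every CT24 mouse was above every CT12 mouse, narrowly at 18.7 against 18.2 CPM. These were the times of its highest and lowest control mean, so that their separation is no test. The fitted difference was 1.73 log2, with a peak at CT23.7 (edgeR, adjusted p = 5.59e-08). Dnajc3 (p58IPK, a co-chaperone of BiP) peaked earlier, at CT20.9, with 0.30 log2, and Atf6 ran in the opposite phase, with 0.24 log2 and a peak at CT10.1. The call of Atf6 was lost without either male replicate, that of Hsp90b1 without male replicate 1 and that of Dnajc3 without male replicate 2. Xbp1, Dnajb9 and Creb3l3 did not pass the 24 h test, with peak-to-trough differences of 0.22, 0.24 and 0.16 log2 and adjusted p of 0.245, 0.533 and 0.319 (edgeR).

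**Figure D1:**
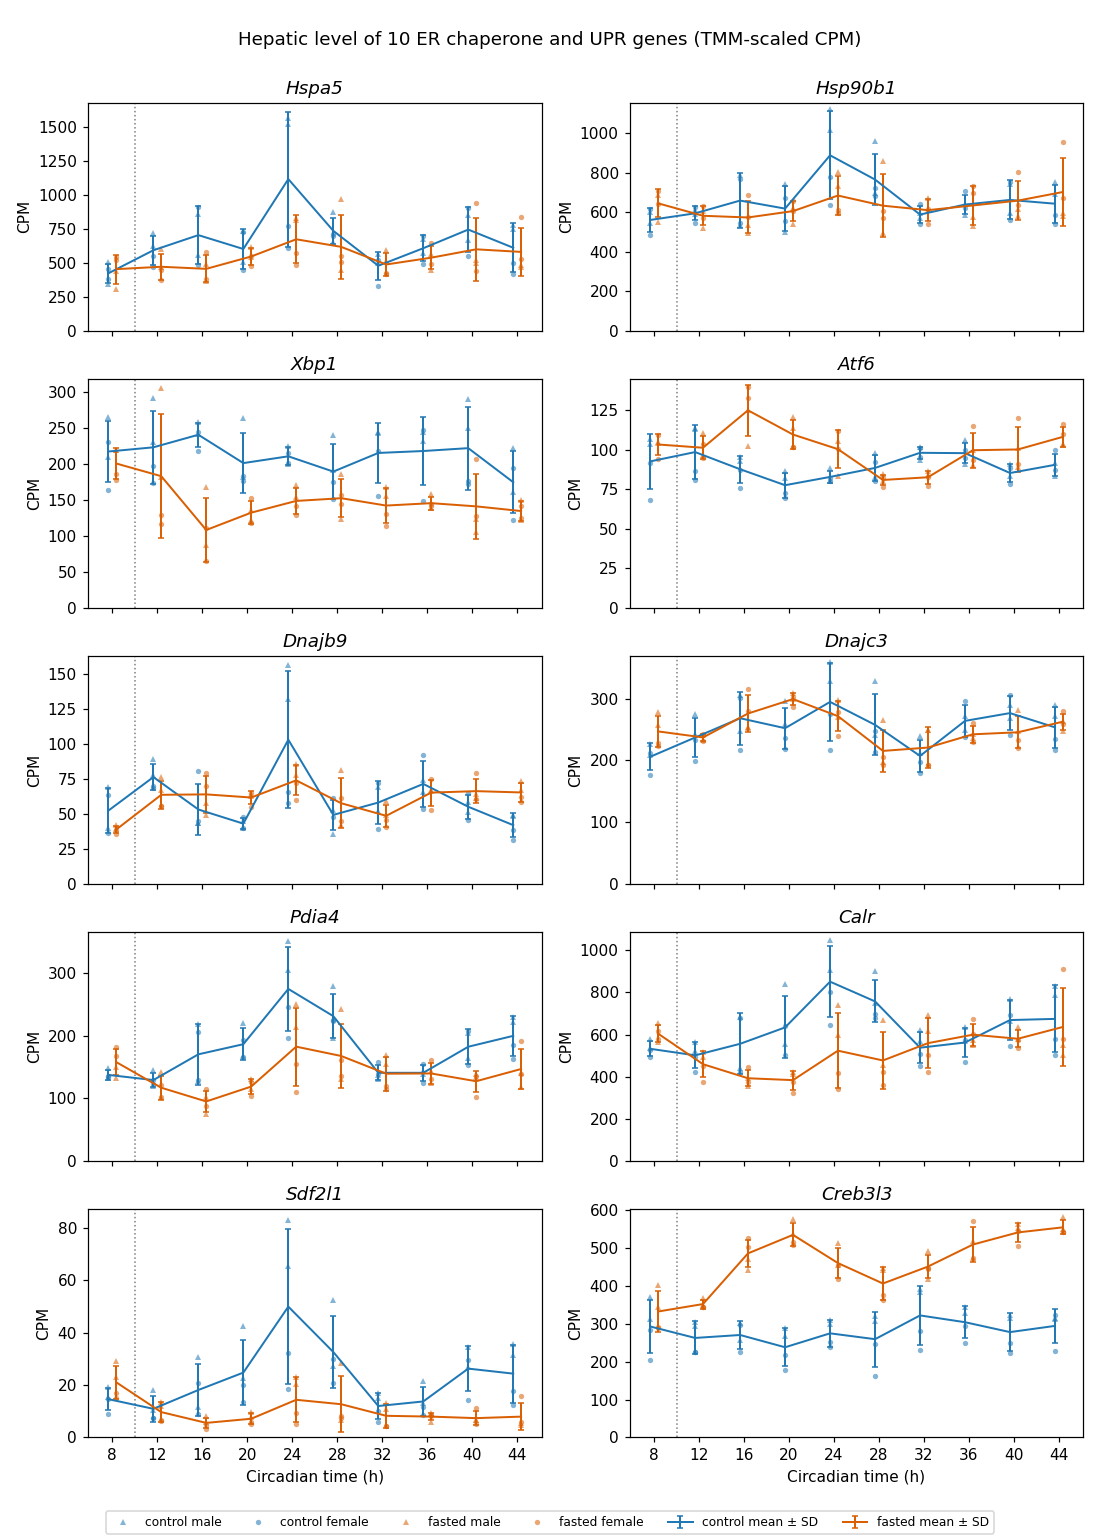
Level of each gene (TMM-scaled CPM, vertical axis from 0) against circadian time in h, in control (blue) and fasted (orange) liver. Triangles are males, circles are females, lines join the means of 4 mice with SD bars, and the dotted line marks food removal at CT10. The control chaperones rise to CT24, where Hspa5 averages 1117 CPM, and Creb3l3 of fasted mice stays above that of controls from CT12 on.

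A 12 h component was called in 6 of the 10 genes in fed liver, against 5.88% of the 20114 genes tested. Dnajb9 (ERdj4, a co-chaperone that binds IRE1) had the largest, 0.94 log2 from peak to trough with peaks at CT0.394 and CT12.4 (edgeR, adjusted p = 0.00161), and no 24 h rhythm was called for it. Its control means ran at 52.4 ± 16.3 CPM at CT8, 76.3 ± 9.27 at CT12, 53.2 ± 18.2 at CT16, 43.2 ± 3.78 at CT20 and 103.0 ± 48.8 at CT24 (SD, n = 4 each). They went on at 49.4 ± 10.7 at CT28, 58.2 ± 15.4 at CT32, 71.5 ± 16.2 at CT36, 55.2 ± 8.52 at CT40 and 42.1 ± 8.38 at CT44. The 4 mice of CT12 were at 68.8 to 88.9 CPM and the 4 of CT20 at 39.9 to 47.6, with no overlap, and those of CT36 (53.5 to 92.1) lay above those of CT44 (31.8 to 49.1). Other times were less apart. Mice of CT8 (36.7 to 68.9 CPM) overlapped those of CT12, and mice of CT32 (39.2 to 72.1) overlapped those of CT36. Sdf2l1 followed with 0.77 log2 (adjusted p = 0.0391), then Hspa5 with 0.75 log2 and peaks at CT1.75 and CT13.8 (adjusted p = 0.0029), Pdia4 (0.37, 0.0325), Hsp90b1 (0.35, 0.0324) and Dnajc3 (0.31, 0.017), all by edgeR. The first peaks of the 6 fell between CT0.394 and CT2.78.

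Averaged over the 12 h cycle, Hspa5 of control mice lay at 9.001 log2 CPM over CT8, 20, 32 and 44, at 9.48 over CT12, 24 and 36, and at 9.48 over CT16, 28 and 40. Calr (0.26 log2, adjusted p = 0.151), Xbp1 (0.10), Atf6 (0.07) and Creb3l3 (0.10) were not called. With sampling every 4 h, a 12 h cycle rests on 3 phases, and a 12 h term also absorbs any departure of a daily wave from a cosine. The 12 h calls were lost when mice or CT24 were left out, which also leaves fewer samples. Without male replicate 1 of every group, or without male replicate 2, 0 of the 10 genes were called (and 207 and 220 genes of all those tested), without CT24 only Hspa5 was, and males alone gave 2 and females alone 0. Without the libraries over 1% Rn18s-rs5, Hsp90b1 and Pdia4 were not called.

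Leaving out CT24 also took the 24 h count from 7 to 4 (Dnajc3, Pdia4, Calr and Sdf2l1), and in females alone it was 3. In males alone the 12 h difference of Hspa5 was 0.88 log2 and in females alone 0.69 log2, with adjusted p of 0.012 and 0.283 (edgeR), and whether the sexes differ in it was not tested. For Dnajb9 the fitted values were 1.302 and 0.598 log2, with adjusted p of 0.00461 and 0.438 (edgeR), and without CT24 its 12 h difference was 0.42 log2 in place of 0.94. The fitted sizes of the others moved less without CT24, to 0.61 log2 for Hspa5, 0.75 for Sdf2l1, 0.35 for Pdia4, 0.30 for Dnajc3 and 0.30 for Hsp90b1. Without male replicate 1 and without male replicate 2, the 12 h difference of Hspa5 was 0.67 and 0.75 log2 (edgeR, adjusted p = 0.0579 and 0.0573), and that of Dnajb9 was 0.76 and 0.88 log2 (adjusted p = 0.0616 and 0.062).

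**Figure D2:**
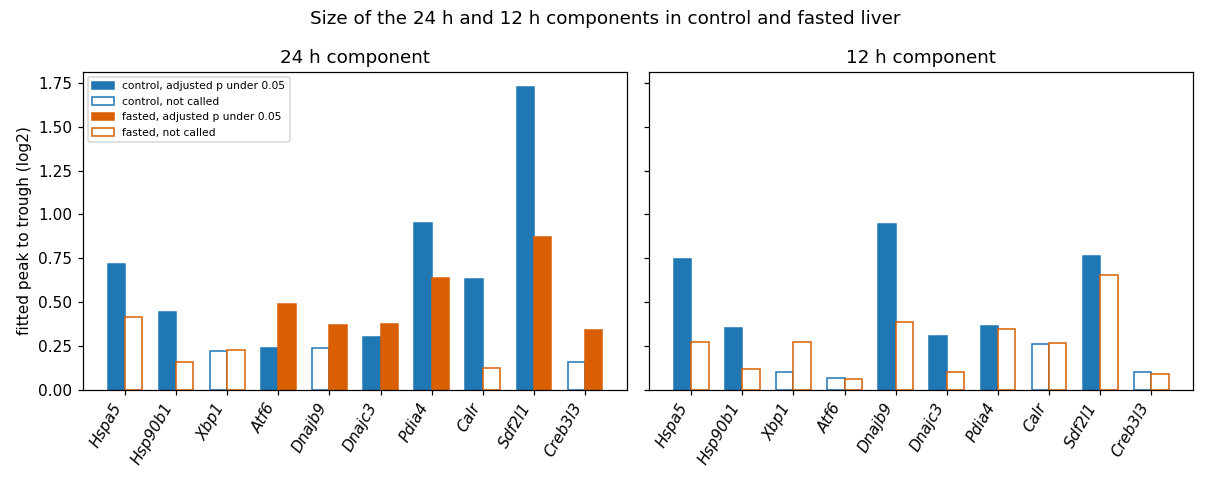
Fitted peak-to-trough difference (log2, vertical axis from 0) of the 24 h component (left) and the 12 h component (right) of each gene in control (blue) and fasted (orange) liver. Filled bars passed the rhythm test at an adjusted p under 0.05. Of the 12 h bars, 6 are filled in controls and 0 in fasted liver.

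Over CT12 to CT44, fasting moved 7 of the 10 genes, 5 downwards and 2 upwards, where 62.5% of the 21187 genes tested changed, 32.9% lower and 29.5% higher. The median difference of the 10 was −0.18 log2, beside −0.02 for all genes tested. Among chaperones and co-chaperones, Sdf2l1 fell most. The 40 control libraries, CT8 included, held 5.85 to 83.1 CPM (median 18.4) and the 36 fasted libraries from CT12 on 3.32 to 28.5 CPM (median 7.16), and the mean difference was −1.31 ± 0.11 log2 (SE, edgeR, adjusted p = 7.31e-14), a fold of 0.404. Pdia4 fell to 0.749-fold of control (−0.42 ± 0.06 log2), Calr to 0.798-fold (−0.33 ± 0.05) and Hspa5 to 0.822-fold (−0.28 ± 0.07, edgeR adjusted p = 0.000854). Hsp90b1, Dnajc3 and Dnajb9 were not called, at −0.08 ± 0.05, −0.02 ± 0.03 and 0.10 ± 0.06 log2, and their 95% intervals, −0.18 to 0.01, −0.09 to 0.04 and −0.02 to 0.23, exclude changes of the size seen in Pdia4.

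The transcription factors diverged. Xbp1 fell to 0.674-fold (−0.57 ± 0.06 log2, adjusted p = 4.46e-11), Atf6 rose to 1.12-fold (0.16 ± 0.03, adjusted p = 4.9e-06) and Creb3l3 to 1.72-fold (0.78 ± 0.04, adjusted p = 8.07e-24, all edgeR). The count was 7 under 11 of 13 alternatives, 6 in females alone, where Hspa5 was not called, and 8 with no filter on low counts, which added Dnajb9. In males alone Hsp90b1 was called and Atf6 was not. In bulk liver, fewer cells of a type and less RNA per cell cannot be told apart. Of the marker genes, all 5 of Kupffer cells fell, their summed level running from 189.1 to 564.7 CPM in controls and from 114.3 to 356.1 CPM in fasted mice from CT12 on. The 5 hepatocyte markers summed to 56770 to 107788 CPM in controls and 61196 to 111436 CPM in fasted liver. Most of that sum is Alb (median 70677 CPM over the 80 libraries). Singly, 3 of these markers were called higher and 1 lower, with Tat at 1.03 and Ttr at −0.48 log2. Also called lower were 4 of 5 cholangiocyte, 3 of 5 stellate, 2 of 5 endothelial and 2 of 5 plasma and B cell markers. Called higher were 0, 1, 2 and 0, in the same order. Of the 5 acinar markers, Prss2, Cpa1, Pnlip and Cel were at 0 in 73 to 77 of 80 libraries, whereas Cela2a was at 0 in 3, reached 2.87 CPM and fell by 1.52 log2 (edgeR, adjusted p = 1.85e-07), and the 5 summed to at most 10.5 CPM. The part of such shifts in the results was not tested.

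**Figure D3:**
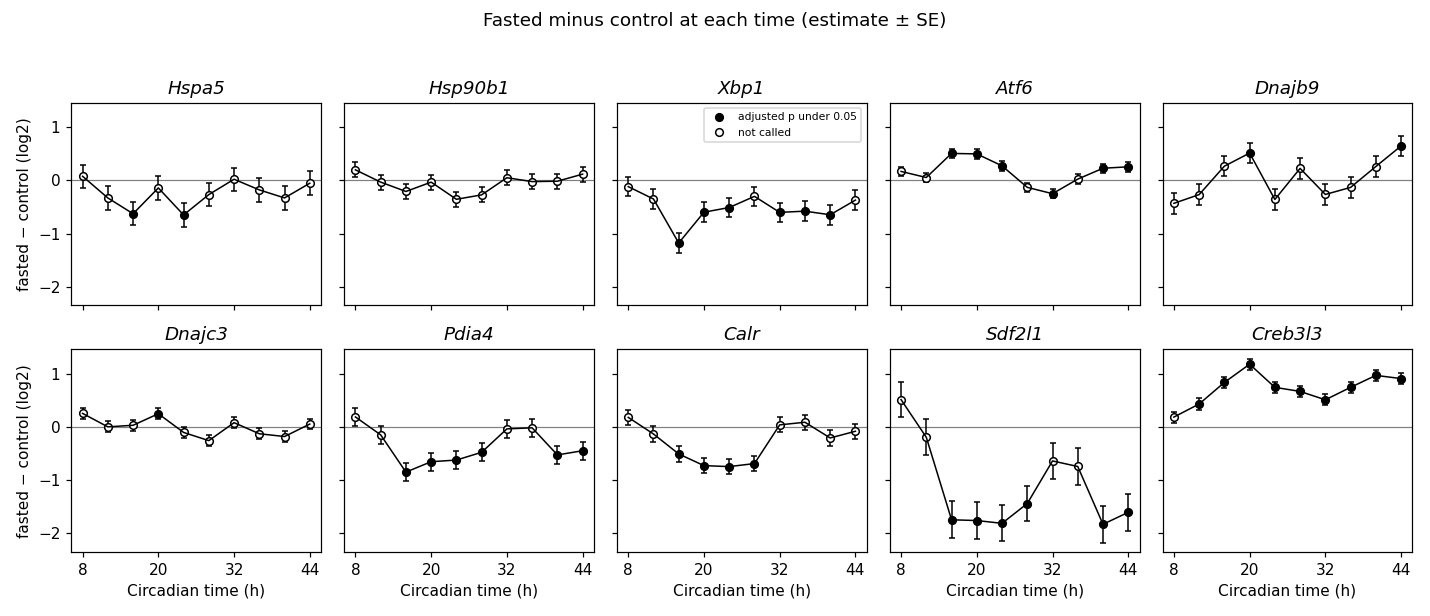
Fasted minus control (log2, vertical axis) with SE bars at each circadian time (h) for the 10 genes. Filled points passed an adjusted p under 0.05. Sdf2l1 lies between −1.75 and −1.83 at CT16 to CT24 and at CT40, whereas Creb3l3 is above 0 and filled at all 9 times from CT12.

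At CT8, before food was removed, none of the 10 genes was called between the mice later fasted and the controls by edgeR, limma-voom or DESeq2 (2, Dnajb9 and Dnajc3, had an unadjusted p under 0.05 in edgeR), and 1.31% of all genes were. From CT12 to CT44, 42 of 90 gene-by-time contrasts passed, 17 higher and 25 lower. All times share 1 fit and the mean above is built from the same control libraries. Leaving out male replicate 1 of every group left 23 of the 42 calls. At CT12, 2 h into the fast, 1 gene was called, against 1.6% of all genes. That gene was Creb3l3, whose 4 fasted mice held 351.0, 369.6, 343.8 and 345.1 CPM and whose 4 control mice held 295.7, 305.3, 225.7 and 224.8 CPM, with no overlap (0.44 ± 0.10 log2, edgeR adjusted p = 0.0178). The call was lost without either male replicate. At CT16, 7 genes were called beside 23.4% of all genes, at CT20 8 (36.6%), at CT24 7 (24.1%), at CT28 4 (21%), at CT32 3 (17.7%), at CT36 2 (26.8%), at CT40 5 (39.9%) and at CT44 5 (39.4%).

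Creb3l3 passed at all 9 times and its fasted mice lay above its controls at each of them. The difference was largest at CT20, where fasted mice averaged 535.3 ± 30.7 CPM and controls 238.2 ± 49.6 (SD, n = 4 each), a difference of 1.19 ± 0.11 log2 (edgeR, adjusted p = 2.37e-12). It was smallest at CT12 and CT32 (0.52 ± 0.10).

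Xbp1 was lower at all 9 times and called at 6. At CT16 the control mice held 257.7, 241.2, 244.8 and 217.7 CPM and the fasted mice 86.9, 168.4, 111.1 and 65.4, and the groups did not overlap (−1.18 ± 0.19 log2, edgeR adjusted p = 5.02e-06). That call held under all 10 alternatives. The call at CT24 was lost under each of the 4 leave-outs of a replicate number in 1 sex, those at CT32 and CT36 under 3 of them, that at CT20 under 2 and that at CT40 under 1. Atf6 changed direction during the fast. It was called higher at CT16, CT20, CT24, CT40 and CT44, with 0.51 ± 0.09 log2 at CT16, and lower at CT32, with −0.25 ± 0.09 log2 (edgeR, adjusted p = 2.4e-05 and 0.0444). The CT32 call was lost under 6 of 10 alternatives, each leave-out of a replicate number in 1 sex among them. The calls at CT24, CT40 and CT44 were each lost under 4 of 10, and those at CT16 and CT20 under 0.

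Sdf2l1 and Pdia4 were lower at 9 of 9 times and called at 6 each, CT16 to CT28, CT40 and CT44. At CT16 the control mice held 11.8, 30.8, 20.7 and 9.12 CPM of Sdf2l1 and the fasted mice 5.96, 8.10, 4.77 and 3.32, and all fasted mice lay below all controls (−1.75 ± 0.35 log2, edgeR adjusted p = 0.000172). The calls of Sdf2l1 held under all alternatives except at CT28, where the call was lost without male replicate 1. Of the 6 calls of Pdia4, that at CT16 held under all, and leave-outs lost those at CT28 and CT40 under 3 of 4, those at CT24 and CT44 under 2 and that at CT20 under 1. At CT32 and CT36 the difference of Sdf2l1 was −0.64 and −0.74 log2 and not called, and that of Pdia4 −0.03 and −0.01 log2. Calr was called lower at CT16, CT20, CT24 and CT28, between −0.50 and −0.74 log2 (lost without male replicate 2 or female replicate 1 at CT16, and without male replicate 1 at CT28), and at CT32 and CT36 it stood at 0.04 and 0.09 log2. Control Calr itself fell from 851.3 ± 169.7 CPM at CT24 to 537.5 ± 73.4 at CT32, and fasted Calr was at 523.4 ± 179.0 and 559.1 ± 118.9 CPM at the same times (SD, n = 4 each).

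Hspa5 passed at CT16 (−0.63 ± 0.22 log2, edgeR adjusted p = 0.0334) and CT24 (−0.65 ± 0.22, adjusted p = 0.0267), and its groups overlapped at both. The CT16 call was lost under 3 of the 4 leave-outs of a replicate number in 1 sex and the CT24 call under all 4. The 4 fasted mice of CT24 held 814.8, 830.6, 482.0 and 570.0 CPM, so that both males again lay above both females. Dnajb9 was called higher at CT20 (0.52 ± 0.19 log2) and CT44 (0.65 ± 0.19), times at which its controls were low, and fasted mice lay above controls without overlap at both, 54.9 to 64.8 CPM against 39.9 to 47.6 CPM at CT20. Without either male replicate both of its calls were lost. Dnajc3 was called once, at CT20 (0.25 ± 0.10 log2, edgeR adjusted p = 0.047), with overlapping groups, and lost the call under 7 of 10 alternatives. Hsp90b1 was called at 0 of 9 times (1 had an unadjusted p under 0.05 in edgeR, limma-voom and DESeq2 both called 0).

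To ask which patterns follow the feeding phase, the active night (CT16, 20, 40 and 44) was set against the rest phase (CT28 and 32), whose centres lie at the same mean time. CT24 enters neither set, and both sets cover the same phases of a 12 h cycle, so that a 12 h wave cancels. A 24 h wave that peaks around dawn, as in most chaperones above, largely cancels as well. The contrast therefore cannot show those rhythms. In controls 1 of the 10 genes differed, against 22.8% of all genes. That gene was Dnajc3, at 0.19 ± 0.06 log2 (edgeR, adjusted p = 0.0263), and 5 of 12 alternatives lost it. In fasted mice, where time of day and hours without food cannot be told apart, 4 differed, against 35.4% of all genes. Atf6 was higher at night by 0.43 ± 0.06 log2, Dnajc3 by 0.31 ± 0.06 and Creb3l3 by 0.31 ± 0.06, and Pdia4 was lower by −0.33 ± 0.10 (edgeR, adjusted p = 3.69e-08, 0.000102, 0.000191 and 0.00767). Without male replicate 2 the calls of Creb3l3 and Pdia4 were lost, and that of Pdia4 also without female replicate 2.

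The change in the night-minus-rest difference upon fasting was itself called for 2 of 10 genes, against 17.3% of all genes. For Atf6 it was 0.56 ± 0.08 log2 (edgeR, adjusted p = 6.1e-07). Its fasted mean was highest at CT16 and lowest at CT28, so that the separation of these 2 times is no test. The fasted mice of CT16 held 125.6, 102.6, 132.6 and 139.6 CPM and those of CT28 84.5, 80.4, 82.4 and 76.4 CPM, with no overlap, whereas control mice held 92.7, 95.3, 87.0 and 75.8 CPM at CT16 and 83.0, 98.3, 80.5 and 92.5 CPM at CT28, and overlapped. For Creb3l3 the change was 0.39 ± 0.09 log2 (edgeR, adjusted p = 0.00175), lost in females alone and without either male replicate. Dnajb9, Pdia4 and Sdf2l1 missed the threshold at 0.44, −0.36 and −0.70 log2 (edgeR, adjusted p = 0.059, 0.0759 and 0.096). Dnajb9 passed under 5 of 12 alternatives. Pdia4 and Sdf2l1 each passed under 3 of 12, namely no filter, without male replicate 1 and males alone.

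Without food, 6 of the 10 genes passed the 24 h test, against 44.4% of 19933 genes tested, after a linear trend over time had been allowed for. Time of day and hours without food cannot be told apart in these samples of CT12 to CT44. A rise and fall over the fast can therefore be fitted as a 24 h wave, and the peaks given are those of the fit. Atf6 peaked at CT17.7 with 0.49 log2 from peak to trough (edgeR, adjusted p = 2.69e-05), Creb3l3 at CT18.5 with 0.34 log2, Dnajc3 at CT19.4 with 0.37 log2 and Dnajb9 at CT20.1 with 0.37 log2. Pdia4 and Sdf2l1 peaked later, at CT2.55 and CT2.50, with 0.64 and 0.87 log2. The call of Sdf2l1 was lost under 7 of 13 alternatives and that of Dnajb9 under 5. Hspa5 (0.41 log2, adjusted p = 0.102), Hsp90b1 (0.16), Calr (0.13) and Xbp1 (0.23) were not called. A difference of the 24 h rhythm between treatments was called for 5 of the 10, Atf6, Pdia4, Calr, Sdf2l1 and Creb3l3, against 19.7% of 20965 genes tested, with adjusted p of 2.22e-06, 0.0254, 0.00342, 0.0166 and 0.00441 (edgeR). For Calr the fitted 24 h difference was 0.63 log2 in controls and 0.13 log2 in fasted mice. Without either male replicate, Pdia4, Sdf2l1 and Creb3l3 were lost. Without CT24, 3 of the 5 were lost, namely Pdia4, Calr and Sdf2l1, and Dnajb9 was called.

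The 12 h component of fasted mice was called for 0 of 10 genes and 0% of all genes by edgeR, with 1 of the 10 (Dnajb9, 0.39 log2, unadjusted p = 0.00721) and 1100 of 19933 genes at an unadjusted p under 0.05, and limma-voom called 0 of the 10 and 1 gene. Hspa5 had 0.27 log2 there beside 0.75 in controls, and Dnajc3 0.10 beside 0.31. The treatments were not shown to differ in the 12 h component. That test called 0 of the 10 genes and 0.0763% of all genes, 2 of the 10 had an unadjusted p under 0.05 (Dnajc3, 0.00441, adjusted p = 0.224, and Dnajb9, 0.0408, adjusted p = 0.443, in edgeR), and limma-voom called 0.

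In fed liver 7 of the 10 genes were called between the sexes in either direction, against 39.2% of all genes. All 7 were lower in females than in males, and the share of all genes called lower was not counted. Sdf2l1 was at 10.3 to 83.1 CPM (median 24.7) in the 20 control males and at 5.85 to 32.4 CPM (median 13.9) in the 20 control females, a female-minus-male difference of −0.86 ± 0.15 log2 (edgeR, adjusted p = 7.64e-06). Creb3l3 was at 256.8 to 391.2 CPM (median 313.1) in males and 162.6 to 323.9 CPM (median 235.4) in females, at −0.40 ± 0.05 log2 (adjusted p = 2.33e-09 by edgeR). Xbp1 (−0.32), Hspa5 (−0.30), Calr (−0.27), Dnajc3 (−0.22) and Atf6 (−0.14) were lower as well, whereas Dnajb9, Hsp90b1 and Pdia4 did not pass, at −0.13, −0.12 and −0.12 log2. Without male replicate 2 the calls of Hspa5 and Atf6 were lost, and that of Atf6 also without female replicate 2.

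The fasting effect differed between the sexes in 1 of the 10 genes, against 12.4% of all genes. Creb3l3 rose by 0.95 ± 0.05 log2 in females and by 0.62 ± 0.05 in males, a difference of 0.33 ± 0.07 log2 (edgeR, adjusted p = 0.0015), and the call was lost without either male replicate. Fasted females and males from CT12 on had like levels of it, with medians of 488.6 and 484.3 CPM.

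The 2 mice of the same treatment, time and sex differed, and the chaperones did so together. The log2 CPM difference between such mice, mouse 1 minus mouse 2, was taken over 40 pairs, and that of Hspa5 was set against that of each of the other 9 genes. Hsp90b1 followed it with a Pearson r of 0.89 and a Spearman rho of 0.88 (permutation test, two-sided, adjusted p = 2.25e-05 for both over 9 relations, from an unadjusted 1e-05, the smallest that 100000 permutations can give). Sdf2l1 (r = 0.83, rho = 0.81), Calr (0.74, 0.75) and Pdia4 (0.74, 0.77) reached the same value. Dnajc3 (0.64, 0.60), Dnajb9 (0.63, 0.61) and Xbp1 (0.45, 0.41) also passed the permutation test, with adjusted p of 3.6e-05, 4.5e-05 and 0.00468 for r and 7.2e-05, 0.000135 and 0.0123 for rho. Atf6 (0.26, 0.22, adjusted permutation p = 0.116 and 0.202) and Creb3l3 (0.06, 0.08, adjusted permutation p = 0.694 and 0.631) did not.

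Without the 2 pairs farthest from the median of Hspa5, r was 0.89 for Hsp90b1, 0.87 for Pdia4, 0.80 for Calr, 0.79 for Sdf2l1, 0.66 for Dnajc3, 0.57 for Dnajb9 and 0.31 for Xbp1. Within the 20 control pairs r was 0.90 for Hsp90b1 and 0.79 for Sdf2l1, and within the 20 fasted pairs both were 0.89. The values for Pdia4 were 0.88 and 0.60 and those for Xbp1 0.25 and 0.61, in the same order, and whether the treatments differ was not tested. Both genes of a relation are read in the same libraries, and share their scaling. Hspa5 was not set against genes outside the set, so whether such genes follow it as closely was not tested. The median size of a pair difference was 0.45 log2 for Sdf2l1 and 0.29 for Hspa5, but 0.08 for Creb3l3.

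**Figure D4:**
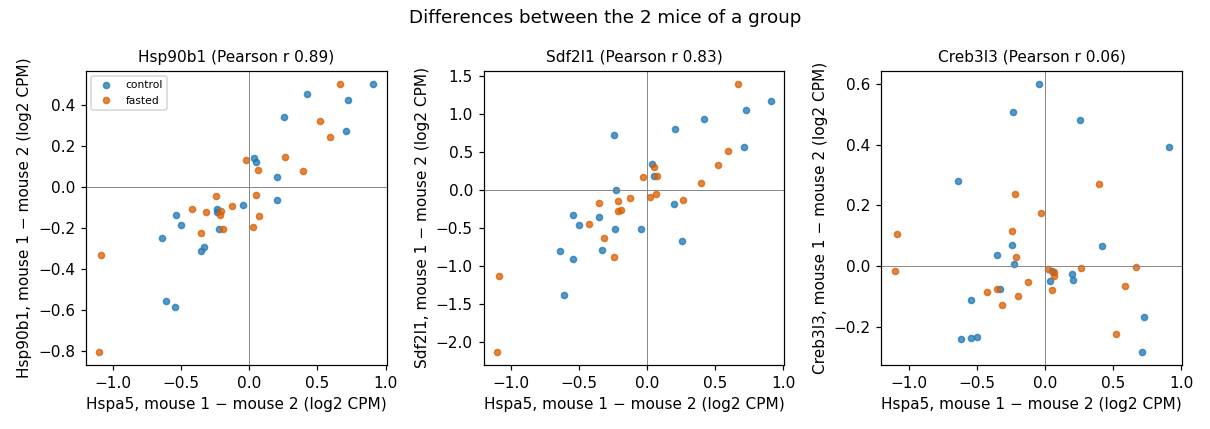
Difference in log2 CPM between the 2 mice of a treatment, time and sex for Hsp90b1, Sdf2l1 and Creb3l3 (vertical axes) against that of Hspa5 (horizontal axes), 40 pairs, control in blue and fasted in orange. The points follow a rising line for Hsp90b1 (r = 0.89) and Sdf2l1 (r = 0.83) and none for Creb3l3 (r = 0.06).

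Across the 20 treatment-by-time means, the genes whose profile was most like that of a member were named by the highest Pearson r, as a description, since the points share libraries and times. Hspa5 was followed most closely by Syvn1 (r = 0.93), the ubiquitin ligase of ER-associated degradation, and by Alg12 (0.92), a mannosyltransferase of N-glycan assembly. Calr was followed by Pdia3 (0.89) and Dnajb11 (0.88), both ER folding factors, Hsp90b1 by Hspa5 (0.86) and Syvn1 (0.83), Pdia4 by Sdf2l1 (0.89) and Stx4a (0.89), and Dnajb9 by Vps37c (0.84) and Txndc11 (0.84). Sdf2l1 was closest to Commd7 (0.95) and Zfp692 (0.95), Dnajc3 to Mrrf (0.91) and Tmem260 (0.85), Xbp1 to Nudcd1 (0.94) and Telo2 (0.94), Atf6 to Rab3ip (0.90) and 2510039O18Rik (0.87), and Tram2 followed Creb3l3 at 0.98.

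The wider ER pathway was read from lists that hold none of the 10 genes, and its counts stand beside 29.5% of all genes called higher and 32.9% called lower. Of 21 listed folding genes 20 were tested, and under fasting 18 fell, 0 rose and 2 were not called, with a median of −0.39 log2 beside −0.02 for all genes. Manf, a secreted ER stress protein, fell by 0.75 ± 0.10 log2, Fkbp11, a prolyl isomerase, by 0.72 ± 0.08 and Hyou1, the large HSP70 of the ER, by 0.71 ± 0.08 (edgeR, adjusted p = 5.98e-09, 1.86e-11 and 1.44e-10). Of 20 translocation genes 15 fell and 2 rose, and the channel subunits Sec61b and Sec61g stood at −0.97 ± 0.05 and −0.93 ± 0.05 log2 and Ssr1 at −0.65 ± 0.04 (edgeR, adjusted p = 2.54e-22, 4.49e-22 and 1.56e-20).

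Degradation genes were split, with 7 of 16 higher and 6 lower and a median of −0.02 log2. Herpud1 rose by 0.80 ± 0.09 log2, and the mannosidase-like Edem1 and Edem2 fell by 0.66 ± 0.03 and 0.60 ± 0.03 (edgeR, adjusted p = 1.22e-10, 3.32e-21 and 5.97e-21). Of 8 sensors and proteases 5 fell and 2 rose, among them Ern1, the IRE1 gene (−0.71 ± 0.06), Atf6b (−0.36 ± 0.03) and Creb3 (0.37 ± 0.03, all called by edgeR). Of 7 tested genes of the PERK branch, 5 rose and 2 fell, with a median of 0.72 log2. That median is the value of Asns, 1 of the 5, at 0.72 ± 0.32 (edgeR, adjusted p = 0.0468). The mean level of Asns was low, at 0.014 log2 CPM. The 2 that fell, named after their values were seen, were Atf4 (−0.27 ± 0.05 log2), the transcription factor of the branch, and Ppp1r15b (−0.12 ± 0.03), and Eif2ak3, the PERK gene itself and listed among the sensors, fell by 0.20 ± 0.05 log2 (edgeR, adjusted p = 6.86e-06, 0.000735 and 0.00165). The stress genes Sesn2, Trib3 and Chac1 rose by 1.61 ± 0.10, 1.60 ± 0.12 and 1.07 ± 0.19 log2 (edgeR, adjusted p = 5.43e-19, 3.55e-16 and 2.88e-06), and Ddit3 was left out because 2 overlapping rows carry its symbol. Of 10 genes linked to CREB3L3, 7 rose and 1 fell, with a median of 0.56 log2, and Cidec, Apoa4 and Pck1 rose by 5.62 ± 0.15, 3.54 ± 0.11 and 1.80 ± 0.08 log2 (all called by edgeR). Of the genes taken as checks of the fast, Srebf1 fell by 3.13 ± 0.10 log2 and Pdk4 rose by 2.20 ± 0.17 (edgeR, adjusted p = 1.9e-29 and 1.55e-15).

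**Figure D5:**
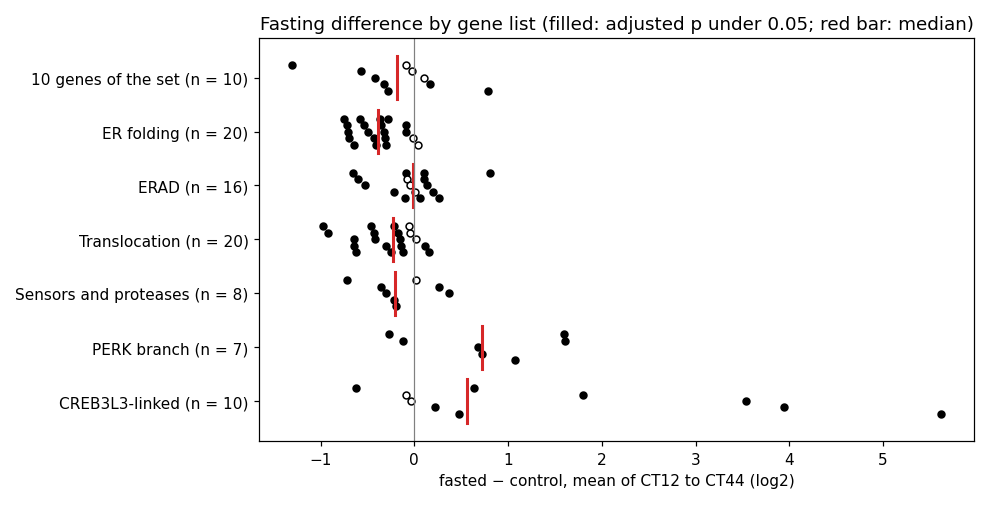
Fasted minus control over CT12 to CT44 (log2, horizontal axis) for the 10 genes and for 6 lists of related genes, 1 point a gene, spread vertically for legibility. Filled points passed an adjusted p under 0.05 and red bars are medians, which lie at −0.39 for folding genes and at 0.72 for the PERK branch. The latter is the value of Asns, a gene of low level.

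The 12 h component of fed liver, called in 5.88% of all genes, was called in 10 of 20 folding genes, 9 of 20 translocation genes, 6 of 16 degradation genes, 2 of 8 sensors and proteases, 2 of 7 genes of the PERK branch and 0 of 10 genes linked to CREB3L3. These calls come from the same fit and mice as the 12 h calls of the set. For the lists they were not retested with mice or CT24 left out. Manf had 0.93 log2 with a first peak at CT1.87 and Hyou1 0.82 log2 with one at CT1.91, close to that of Hspa5 at CT1.75 (edgeR, adjusted p = 0.00402 for Manf and 0.00424 for Hyou1). Herpud1 had 0.79 log2 with a peak at CT11.3, ahead of the second peak of Hspa5 at CT13.8 (edgeR, adjusted p = 0.0257). Fkbp11 (0.16 log2) was not called at 12 h but had a 24 h component of 1.03 log2 with a peak at CT9.29.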

How the data were processed

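The deposited table holds raw read counts per gene for 80 liver libraries. Per the labels, poly(A) RNA was made into stranded libraries, and the submitters' processing notes name Trimmomatic, HISAT2 and DESeq2 and the build GRCm39, with no versions. How the authors assigned reads to genes is not given in the sources used here, and the counts are not normalised. Treatment and sex were taken from the titles, since the characteristics disagree with them in 40 libraries on each.

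Counts were tested with the quasi-likelihood F test of edgeR 4.0.16 in R 4.3.3, after filterByExpr and TMM scaling, over 21187 genes, with a mean per treatment, time and sex. Rhythms were fitted as cosines and sines of 24 h and 12 h with sex as a covariate, in 40 control libraries (20114 genes), in 36 fasted libraries from CT12 on with a linear time term (19933 genes), and in the 72 libraries of both from CT12 on (20965 genes). The p-values were adjusted by Benjamini-Hochberg over all genes tested, and 0.05 was the threshold. CPM of the set are TMM-scaled, and log2 CPM use a prior count of 2. CPM of Cidec and of the cell type markers are scaled to library totals alone. Alternatives were DESeq2 1.42.0 size factors and Wald test, limma-voom (limma 3.58.1), no filter, leave-outs, each sex alone, a replicate block, and other time terms. Omission of CT24 and of libraries rich in ribosomal RNA was added after the data were seen. Totals of 25534901 to 59927771 counts limit the precision of low genes most.

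Replicate numbers were not treated as pairing mice, since the labels tie them to no shared cage or day. The closest 2 libraries of a group differed well beyond counting noise (chi-square per degree of freedom 14.8), so no library was counted as deposited more than once.

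The 10 genes and the lists were chosen with earlier results of these data known. From each list, the 3 called genes with the largest fasting mean and a mean log2 CPM of at least 1 are named, and for likeness the 2 genes with the highest r at the same level. Results for 2 of the genes so chosen are not reported here. The article read for style is a review and gives no methods for these data.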

Additional observations from a re-analysis of the deposited data

Results flagged for a closer look

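Among 200 groups of 4 mice, 1 mouse stood apart in 7, by the gap to its nearest neighbour relative to the range of the group (Dixon's criterion at 95%). Chance alone gives such a flag in about 1 of 20 groups. On the log2 CPM scale, Xbp1 of control CT20 male 1 was at 8.04 against 7.46 to 7.51 in the other mice, and that of control CT36 female 1 at 7.21 against 7.86 to 7.95. Dnajb9 of control CT16 female 1 was at 6.33 against 5.45 to 5.49. Pdia4 was at 7.22 in control CT8 male 2, against 7.05 to 7.08, and at 6.68 in fasted CT40 female 2, against 7.06 to 7.11. Sdf2l1 of fasted CT28 male 2 was at 4.84 against 2.71 to 3.03, and Creb3l3 of control CT44 female 2 at 7.83 against 8.29 to 8.34. No library was flagged for more than 1 gene. The library of control CT8 female 2, with 31.3% of its counts on Rn18s-rs5, was flagged for 0 of the 10 genes.

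The response of Creb3l3 to fasting differed between the sexes by 0.33 log2, female minus male, by the interaction term of edgeR.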

How the results depend on the processing

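Over the alternatives, 1388 results of single genes kept their direction and side of the threshold, 163 lost a call, 31 gained one and 4 turned direction. The 4 were uncalled values, namely the fasting mean of Hsp90b1 (0.032 log2) and Dnajc3 (0.053) in females alone, that of Dnajc3 without female replicate 2 (0.0088, with leave-outs from −0.048 to 0.0088), and the night-minus-rest difference of fasted Sdf2l1 in females alone (0.17). The causes were not tested, except that leaving out mice or a sex leaves fewer samples. Leave-outs of replicates gave 0 to 2 of the 10 genes (2135 to 5076 of all genes) for control night minus rest, 2 to 5 (4652 to 7781) for fasted night minus rest, 1 to 3 (1315 to 3852) for their difference, 0 to 1 (238 to 2831) for the sex difference of fasting, 0 to 6 (207 to 1537) for the control 12 h term, 4 to 5 (5887 to 7177) for the fasted 24 h term, 2 to 5 (2142 to 3125) for the 24 h difference, 0 to 111 of all genes for the 12 h difference, and 23 to 41 of the 42 calls by time. Males alone gave 2866 genes for control night minus rest, 4891 for fasted, 4 members and 2315 genes for their difference, 5301 genes for the control 24 h term, 2 members and 662 genes for the control 12 h term, 5352 genes for the fasted 24 h term, and 2313 and 152 genes for the 24 h and 12 h differences. Females alone gave 0 members and 1925 genes, 4279 genes, 1 member and 998 genes, 3 members and 4050 genes, 0 members and 30 genes, 3 members and 3104 genes, 2 members and 1107 genes, and 0 genes, in the same order. Without CT24 the control 24 h and 12 h terms called 4 and 1 members (317 genes at 12 h), and the differences 3 members at 24 h and 0 genes at 12 h. Without libraries over 1% Rn18s-rs5 the 12 h difference called 6 genes. With no filter, 7 members passed fasted night minus rest, 5 its difference from control, 2 the sex difference, 2 the fasted 12 h term (594 genes) and 3 the 12 h difference (1071 genes). DESeq2 called 2 members for the sex difference, and 1 gene passed the fasted 12 h term by limma-voom and 1 with no linear time.

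The correlation of the deviations of same-numbered mice from their group means exceeded 0.1 in 5 of 20 pairs (−0.19 to 0.56, median 0.02), so the numbers were not taken to pair mice. With the replicate block, 5 members were called at 12 h in controls and 5 at 24 h in fasted mice, Sdf2l1 being lost from both, and 3 for the change in night minus rest, Dnajb9 being added.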

Other observations

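The night-minus-rest difference of genes of the PERK branch was also compared between treatments. The change was called upwards in 4 of its 7 tested genes and downwards in 0, where 17.3% of all genes were called in either direction, with a median change of 0.95 log2 beside −0.03 for all genes. Chac1, Trib3 and Sesn2 changed by 2.23 ± 0.48, 2.13 ± 0.30 and 1.08 ± 0.25 log2 (edgeR, adjusted p = 0.000733, 8.96e-07 and 0.00161). In fed liver Trib3 had a 24 h component of 3.10 log2 with a peak at CT6.18, in the rest phase, away from the dawn peak of the chaperones.

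Among genes linked to CREB3L3, 4 of 10 were called upwards and 1 downwards in the same comparison, beside the same 17.3% of all genes, and Pck1, a gluconeogenic enzyme, changed by 1.42 ± 0.22 log2 (edgeR, adjusted p = 4.33e-06).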
